A study of Mus musculus with 21 samples.

Results

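Tuft cell genes were followed in the cecum, a blind sac between small intestine and colon, of C57BL/6 mice, a common inbred strain, on a Western-type diet with or without broccoli powder. The 10 genes, Dclk1, Trpm5, Pou2f3, Il25, Gfi1b, Avil, Sh2d6, Alox5, Ptgs1 and Hpgds, were taken by name from the raw count table, in which all 10 had 1 row each among 25361 gene identifiers. They are genes known as markers of tuft cells. The filter on low counts was passed by 8 of them, and not by Il25 and Gfi1b. All mice were given the Total Western Diet from 3 weeks of age for 6 weeks, and then stayed on it for 3 more weeks with broccoli powder added at 0%, 0.5%, 1.0% or 2.5%. Among the treatments the labels name, the 0% group therefore differs from the others in the powder only. The animal numbers also ran in blocks by diet, with few exceptions, and an effect of such blocks cannot be told apart from diet. There were 6 libraries at 0% and 5 at each other dose, each from a mouse with its own number.

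Tuft cells are rare chemosensory cells of the gut epithelium. Receptors on their surface act through G proteins, phospholipase C and stored calcium to open the cation channel Trpm5. Active tuft cells release the cytokine interleukin 25, leukotrienes and prostaglandins, and in the small intestine of mice they start the type 2 immune response to worms and protists, in which interleukin 13 from innate lymphoid cells makes the epithelium form more tuft and goblet cells. Several of the 10 genes are also used by other cells of the gut wall: Dclk1 by neurons and stromal cells, Alox5, Ptgs1 and Hpgds by mast cells and macrophages, and Gfi1b by platelet and red cell precursors. In whole tissue, fewer cells of a type and less RNA per cell cannot be told apart.

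Library totals ran from 28514263 to 58594569 counts. Marker genes of the cecal and colonic epithelium, such as Car1 and Slc26a3, were abundant in all libraries, with a summed level of the 8 listed genes between 6408 and 9862 CPM. CPM is the count scaled to a common library size, from library totals with TMM factors. Markers of the small intestine were high in 6 libraries (0% replicate 5, 0.5% replicates 1 and 4, 1.0% replicate 1, and 2.5% replicates 1 and 2), with a mean log2 CPM of 2.99 to 5.93, against 0.26 to 1.52 in the other 15. No tuft cell gene was called with or without those 6 libraries. The control 0% replicate 5 also stood apart in some inflammatory genes. The neutrophil gene Ly6g was at 22.6 CPM there, where the next highest library had 1.57. Csf3r, Cxcr2 and S100a9 were also highest there, but at 2.32, 0.525 and 0.306 CPM only. The other neutrophil genes listed, S100a8, Mpo, Ngp and Retnlg, were highest in other libraries. These genes were picked out after their values were seen, and the share of neutrophils in this library was not tested.

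The RefSeq promoter windows (GRCm38.p6, from 250 bases before to 50 after a start) were searched on both strands for the octamer ATGCAAAT, the motif bound by POU domain factors such as Pou2f3. Of the 10 genes, 8 had a window, and Pou2f3 and Il25 had none in the table used. Among their 9 windows, 1 held the octamer, that of Hpgds, against 1.74% of all 32851 windows. Of 36 windows of 32 further tuft cell genes, 4 held it, those of Sucnr1, 1810046K07Rik, Kctd12 and Itpr3. A match is a description of the letters only. The sequences shown are the Hpgds window, with the octamer in capitals starting 174 bases before the start (position -174, same strand), both windows of Dclk1, whose gene-level count sums transcripts from both starts, and the window of Alox5, the member whose level was most correlated with that of Dclk1. They are written 5′ to 3′ on the strand of the gene. For Hpgds the start meant is that of RefSeq. In GENCODE the gene begins at 65144908 on the minus strand, within this window, so by that annotation the octamer lies just inside the gene.
Hpgds, chr6:65144681-65144980, minus strand: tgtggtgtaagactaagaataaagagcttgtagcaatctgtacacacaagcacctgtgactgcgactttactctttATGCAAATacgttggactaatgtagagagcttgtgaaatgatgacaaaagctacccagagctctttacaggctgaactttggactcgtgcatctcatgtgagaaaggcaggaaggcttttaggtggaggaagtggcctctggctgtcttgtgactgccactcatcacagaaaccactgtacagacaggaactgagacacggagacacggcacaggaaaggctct
Dclk1, chr3:55242114-55242413, plus strand: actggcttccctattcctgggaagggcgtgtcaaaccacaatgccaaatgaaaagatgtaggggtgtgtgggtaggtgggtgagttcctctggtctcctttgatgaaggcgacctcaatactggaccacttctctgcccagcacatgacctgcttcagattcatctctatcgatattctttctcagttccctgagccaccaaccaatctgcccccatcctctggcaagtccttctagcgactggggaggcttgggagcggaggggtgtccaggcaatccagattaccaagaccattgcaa
Dclk1, chr3:55461478-55461777, plus strand: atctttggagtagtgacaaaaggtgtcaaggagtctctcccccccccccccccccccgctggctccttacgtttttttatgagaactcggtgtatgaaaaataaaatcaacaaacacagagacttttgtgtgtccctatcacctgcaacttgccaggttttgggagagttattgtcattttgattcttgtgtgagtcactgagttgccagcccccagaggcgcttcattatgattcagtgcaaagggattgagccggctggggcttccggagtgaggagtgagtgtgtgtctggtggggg
Alox5, chr6:116461129-116461428, minus strand: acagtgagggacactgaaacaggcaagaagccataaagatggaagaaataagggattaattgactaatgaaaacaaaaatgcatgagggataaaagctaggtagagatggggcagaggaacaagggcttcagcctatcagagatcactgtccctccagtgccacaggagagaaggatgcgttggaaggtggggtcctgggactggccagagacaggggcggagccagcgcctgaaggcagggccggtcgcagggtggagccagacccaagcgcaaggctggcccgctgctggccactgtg

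The 10 genes spanned a wide range of levels. Per kilobase of exon, the scale on which genes can be compared, Ptgs1 was highest at 8.60 ± 1.48 CPM per kilobase (SD over 21 libraries), followed by Sh2d6 at 3.45 ± 0.410 and Dclk1 at 2.01 ± 0.225. The ranges of these 3 did not overlap with each other or with those of the genes below them. Hpgds stood at 1.11 ± 0.181, Pou2f3 at 0.881 ± 0.1865, Alox5 at 0.479 ± 0.108, Trpm5 at 0.426 ± 0.0807 and Avil at 0.258 ± 0.0813 CPM per kilobase. From Hpgds down each gene's range overlapped that of the next, and Alox5 lay above Trpm5 in 13 of 21 libraries only, so the order of those 2 was not fixed. Gfi1b, at 0.0735 ± 0.0517, and Il25, at 0.0339 ± 0.0404, were close to the limit of detection. The exon length of Dclk1, 15.3 kilobases, sums the exons of all annotated transcripts, and its level per kilobase depends on that length.

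**Figure D1:**
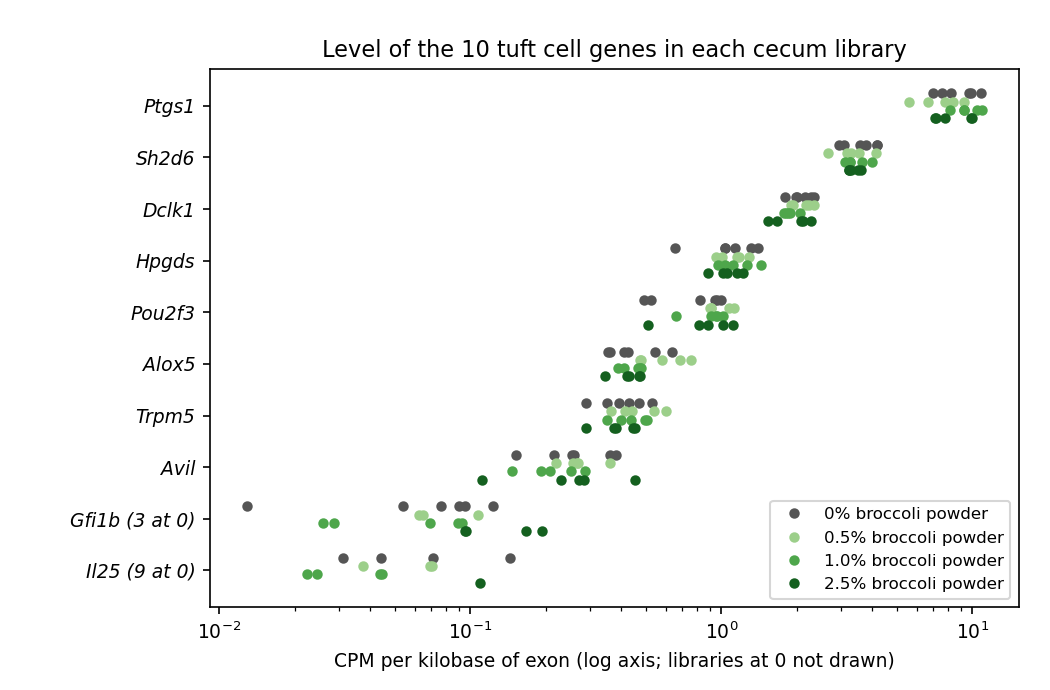
Level of each of the 10 genes per kilobase of exon (horizontal log axis), 1 point per library, coloured by diet. Ptgs1, Sh2d6 and Dclk1 form separate bands at the top, the middle genes overlap, and Gfi1b and Il25 were at 0 counts in 3 and 9 libraries, which are not drawn.

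No difference in a tuft cell gene between broccoli diets and 0% passed the test in these libraries. Of the 8 tested genes, 0 were called at 2.5% against 0% by edgeR's quasi-likelihood test at an adjusted p under 0.05, where 0.109% of all 15652 genes tested were called. Of all genes, 0.0958% were called as higher and 0.0128% as lower. DESeq2 called 0 of the 8 and 0.512% of all genes it tested, and limma voom called 0 of the 8 and 0.0447% of all genes. In edgeR 0 of the 8 had an unadjusted p under 0.05, where 8.43% of all genes did. The log2 changes at 2.5% ran from -0.11 for Dclk1 to 0.13 for Pou2f3, with a median of -0.08 over the 8 genes, beside -0.01 over all genes. At 0.5%, 0 of 8 were called (0.00639% of all genes) and 1 had an unadjusted p under 0.05, which was Alox5. DESeq2 and voom also called 0 of 8 there, with 0.0128% and 0.00639% of all genes. At 1.0%, 0 of 8 were called (0% of all genes, by all 3 tools) and 0 had an unadjusted p under 0.05 in edgeR. The 3 comparisons share their 6 control libraries.

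The same held for the other contrasts. The slope per 1% of powder was called for 0 of 8 (0.147% of all genes), any difference among the 4 diets for 0 of 8 (0.0256%), and the mean of the 3 broccoli diets against 0% for 0 of 8 (0% of all genes) by edgeR. DESeq2 called 0 of 8 in each, with 0.385% of all genes for the slope, 0.436% for any difference and 0.0448% for the mean. Voom called 0 of 8 in each, with 0.0575%, 0.0128% and 0% of all genes in the same order. No member had an unadjusted p under 0.05 in these 3 contrasts in edgeR. A p that misses the threshold does not show that the diets were alike, so 95% confidence intervals are given with the changes.

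**Figure D2:**
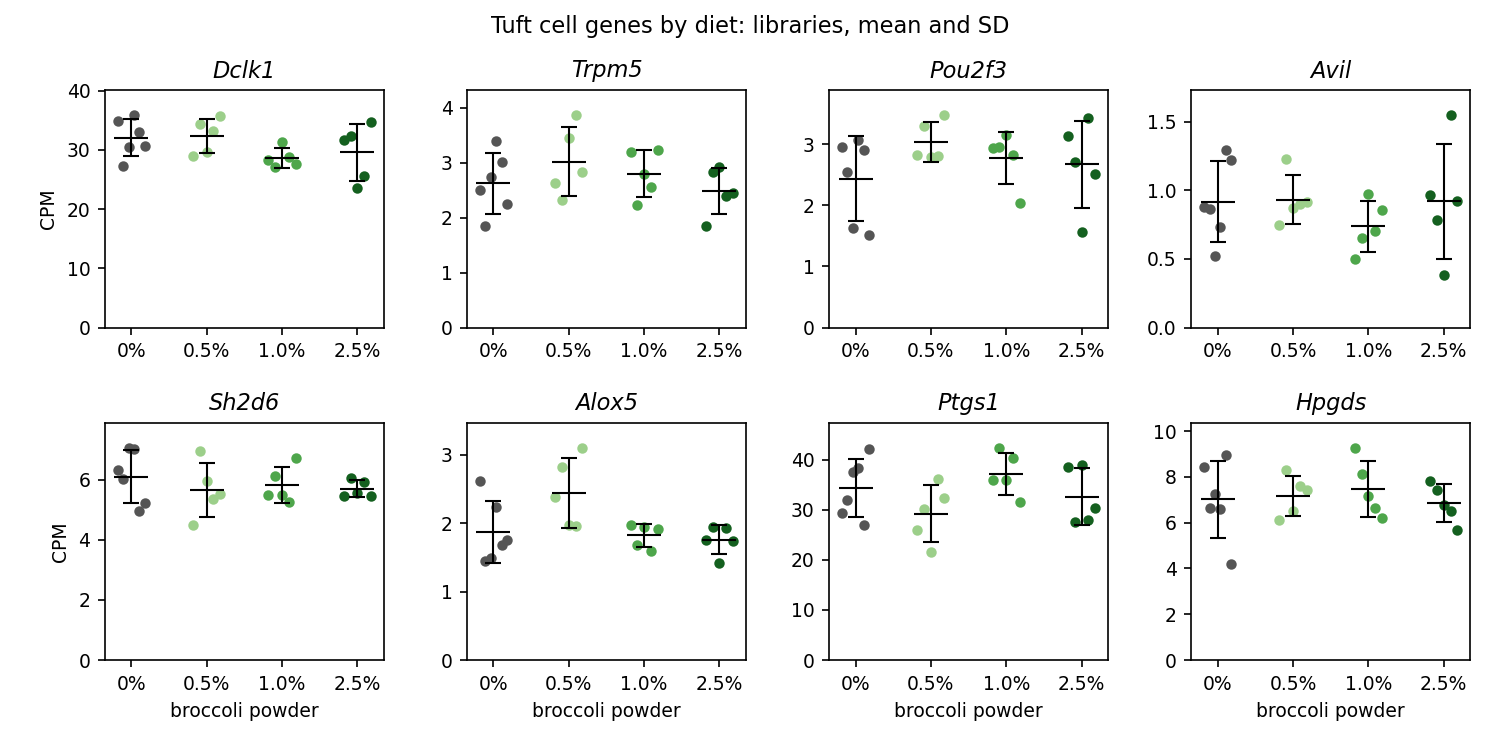
Expression of the 8 tested genes in CPM (vertical axes from 0) by diet, 1 point per library, with the mean and SD as bars. The points of every broccoli diet overlap those of the 6 control libraries in all 8 genes.

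Pou2f3, the POU domain transcription factor that tuft cells require, lies on chromosome 9 from 43123939 to 43210369 (minus strand) of GRCm38, the build of all gene coordinates here. In replicates 1 to 5 it stood at 3.13, 2.72, 1.57, 3.44 and 2.52 CPM at 2.5%, against lowest 1.52, median 2.73 and highest 3.07 CPM in the 6 libraries at 0%. At 2.5%, 2 of 5 libraries lay above all controls and the other 3 within their range. Its means were 2.44 ± 0.695 CPM at 0% (SD, n = 6), 3.04 ± 0.327 at 0.5%, 2.78 ± 0.4295 at 1.0% and 2.68 ± 0.715 at 2.5% (n = 5 each). The log2 change at 2.5% was 0.13 ± 0.20 (SE, 95% interval -0.29 to 0.55, adjusted p = 0.885). At 0.5% Pou2f3 was at 2.82, 3.31, 2.79, 2.81 and 3.475 CPM, all above the control median, and the change was 0.32 ± 0.20 (SE, 95% interval -0.10 to 0.73, adjusted p = 0.738). At 0%, replicates 3 and 6 were low, at 1.625 and 1.52 CPM, while the other 4 lay between 2.54 and 3.07. Pou2f3 was the member with the highest point estimate when the 3 broccoli diets were averaged, at 0.21 ± 0.16 (SE, 95% interval -0.13 to 0.55, adjusted p = 0.818). That value was 0.11 without 0% replicate 6 and 0.12 without 0% replicate 3. The change at 2.5% ran from 0.02 without 2.5% replicate 4 to 0.27 without 2.5% replicate 3.

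Gfi1b, a zinc finger repressor found in tuft cells and in blood cell precursors, lies on chromosome 2 from 28609450 to 28621982 (minus strand) and was too low for the test. Its counts were 6, 0, 12, 6 and 13 at 2.5%, a sum of 37 over 5 libraries, against 6, 5, 1, 9, 8 and 3 at 0%, a sum of 32 over 6. The sums were 19 at 0.5% and 27 at 1.0%, and 3 of the 21 libraries had no count. The 2 highest libraries were both at 2.5% (12 and 13 counts), but 2.5% replicate 2 had 0. In a fit with no filter on low counts the log2 change at 2.5% was 0.54 ± 0.74 (SE), with an interval of -0.98 to 2.065 and an adjusted p = 0.862. Of 10 marker genes of platelets and red cells, other sources of Gfi1b, 4 were tested and 0 called at 2.5%, 1 was positive and the median log2 change was -0.44, or -0.26 with 2 of 4 positive when 0% replicate 5 was left out. The globin genes Hbb-bs and Hba-a1 were at 1.92 and 1.34 CPM at 2.5%, against 3.26 and 2.10 CPM at 0% (adjusted p = 0.153 and 0.328 by edgeR). The platelet genes Itga2b and Pf4 were at 2.155 and 0.230 CPM at 2.5%, against 1.95 and 0.163 CPM at 0%. Pf4, with 132 counts in all, did not pass the filter on low counts. The platelet gene Gp1bb went the other way, at 0.271 CPM at 2.5% and 0.315 at 0%, and Alas2 had no count in any library. These genes were picked out after their values were seen, and the part of such cells in the Gfi1b counts was not tested.

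Trpm5, the calcium-opened cation channel at the end of the taste-like pathway, lies on chromosome 7 from 143069153 to 143094642 (minus strand) and was at 1.845, 2.84, 2.91, 2.39 and 2.44 CPM at 2.5%, against lowest 1.84, median 2.615 and highest 3.40 CPM at 0%. All 5 libraries at 2.5% lay within the control range. Its means were 2.62 ± 0.553 CPM at 0% (SD, n = 6), 3.02 ± 0.624 at 0.5%, 2.80 ± 0.422 at 1.0% and 2.485 ± 0.426 at 2.5% (n = 5 each). The log2 change at 2.5% was -0.08 ± 0.18 (SE, 95% interval -0.45 to 0.29, adjusted p = 0.922). At 0.5% it was 0.20 ± 0.18 (SE, 95% interval -0.16 to 0.56, adjusted p = 0.798), with 2 of 5 libraries above all controls, and 0.10 without the animals numbered above 70. Trpm5 shares 220 exon bases with Tssc4 on the other strand, and its count is uncertain to that extent, because no source used says whether reads were counted by strand.

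Receptors and second messengers upstream of Trpm5 were read from a list of 11 genes, of which 9 were tested. At 2.5%, 0 were called in either direction, 3 of 9 were positive, and the median log2 change was -0.08, beside -0.01 over all genes. Itpr3, a calcium channel of the endoplasmic reticulum, was at 36.65 ± 5.75 CPM at 2.5% (SD, n = 5) and 38.8 ± 2.905 at 0% (n = 6), a log2 difference of -0.08 ± 0.09 (adjusted p = 0.827). The phospholipase Plcg2 was at 7.37 ± 0.4825 CPM at 2.5% (SD, n = 5) and 6.935 ± 1.025 at 0% (n = 6). Plcb2, the phospholipase of taste cells, was at 1.69 ± 0.208 CPM at 2.5% (SD, n = 5) and 1.89 ± 0.485 at 0% (n = 6), a log2 difference of -0.16 ± 0.21 (adjusted p = 0.847). Gnat3, the taste G protein gustducin, was at 1.48 ± 0.422 CPM at 2.5% (SD, n = 5) and 1.51 ± 0.459 at 0% (n = 6), with -0.03 ± 0.23 (adjusted p = 0.979). Sucnr1, the succinate receptor of tuft cells, ranged from 0.245 to 3.825 CPM, with its highest value in 1.0% replicate 1, one of the libraries high in small intestine markers. The sweet receptor subunit Tas1r2 had 6 counts in all, and 17 of 21 libraries had none. The umami receptor subunit Tas1r1 had the largest positive difference and the lowest adjusted p of the list, at 0.268 ± 0.0626 CPM at 2.5% (SD, n = 5) and 0.0931 ± 0.0413 at 0% (n = 6), a log2 difference of 1.47 ± 0.49 (adjusted p = 0.383). Sucnr1, Tas1r2 and Tas1r1 were picked out after their values were seen.

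Dclk1, a microtubule-binding kinase and the most used tuft cell marker in the mouse gut, lies on chromosome 3 from 55242364 to 55539068 (plus strand). It was at 31.65, 32.4, 23.5, 25.6 and 34.7 CPM at 2.5%, against lowest 27.3, median 31.8 and highest 35.8 CPM at 0%. At 2.5%, replicates 3 and 4 lay below all 6 controls and the other 3 within their range. Its means were 32 ± 3.14 CPM at 0% (SD, n = 6), 32.3 ± 2.93 at 0.5%, 28.6 ± 1.65 at 1.0% and 29.6 ± 4.77 at 2.5% (n = 5 each). The log2 change was -0.11 ± 0.09 (SE, 95% interval -0.31 to 0.08, adjusted p = 0.754) at 2.5%, and -0.16 ± 0.09 (SE, 95% interval -0.35 to 0.03, adjusted p = 0.999) at 1.0%. Dclk1 was the most precisely measured member, with a biological coefficient of variation of 11.9%, beside a median of 11.5% over 2343 genes of like level. It shares 87 exon bases with Gm42609 and 27 with Gm21954 on the other strand. The change at 2.5% was -0.04 without 2.5% replicate 3, and -0.19 with the 6 libraries of high small intestine markers left out. The interval in the fit of all libraries leaves room for a change at 2.5% of between 0.808-fold and 1.06-fold.

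Avil encodes advillin, a villin-like protein that binds actin in tuft cells and sensory neurons, on chromosome 10 from 127000709 to 127020994 (plus strand). It was at 0.966, 0.781, 0.380, 1.545 and 0.922 CPM at 2.5%, against lowest 0.518, median 0.872 and highest 1.29 CPM at 0%. One library at 2.5% lay above all controls and another below all of them, with the other 3 within their range. The log2 change at 2.5% was 0.00 ± 0.31 (SE, adjusted p = 1.00), and the interval of -0.63 to 0.63 was the widest among the tested members at this dose. Its level of 0.878 CPM over all libraries rests on 15 to 59 counts a library, and it shares 165 exon bases with Tsfm on the other strand.

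Sh2d6, an SH2 domain protein enriched in tuft cells, lies on chromosome 6 from 72513641 to 72521707 (minus strand) and was at 5.475, 6.08, 5.57, 5.92 and 5.45 CPM at 2.5%, against lowest 4.97, median 6.19 and highest 7.065 CPM at 0%. All 5 values at 2.5% lay within the control range and close together. Means were 6.11 ± 0.888 CPM at 0% (SD, n = 6), 5.66 ± 0.899 at 0.5%, 5.82 ± 0.593 at 1.0% and 5.70 ± 0.283 at 2.5% (n = 5 each). The log2 change at 2.5% was -0.10 ± 0.12 (SE, 95% interval -0.35 to 0.15, adjusted p = 0.833), and it was negative at all 3 doses, which share their controls. With the same 6 libraries left out the change at 2.5% was -0.17. Dclk1 was negative at 1.0% and 2.5% and positive at 0.5%.

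Of the 3 lipid mediator enzymes, Alox5 (5-lipoxygenase, the first step of leukotriene synthesis) had the lowest p of any member. At 0.5% it was at 2.39, 2.82, 1.965, 1.95 and 3.10 CPM, against 2.61, 1.45, 1.48, 2.24, 1.685 and 1.75 CPM at 0%. At 0.5%, 2 of 5 libraries lay above all controls, and all 5 lay above the control median. The log2 change was 0.39 ± 0.18 (SE, 95% interval 0.02 to 0.76, adjusted p = 0.685), with an unadjusted p = 0.0406. It did not pass over all genes, and 7.14% of all genes had an unadjusted p under 0.05 at this dose. At the higher doses Alox5 was at 1.97, 1.68, 1.94, 1.59 and 1.92 CPM at 1.0% and 1.76, 1.94, 1.42, 1.925 and 1.74 CPM at 2.5%. The changes there were -0.04 ± 0.18 (SE, 95% interval -0.41 to 0.34, adjusted p = 0.999) and -0.09 ± 0.18 (SE, 95% interval -0.47 to 0.28, adjusted p = 0.911). The test of any difference among the 4 diets gave Alox5 an unadjusted p = 0.0582 and an adjusted p = 0.7835. Alox5 lies on chromosome 6 from 116410077 to 116461178 (minus strand).

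Ptgs1, cyclooxygenase 1, which makes the prostaglandin precursor, lies on chromosome 2 from 36230426 to 36252272 (plus strand) and was at 38.5, 27.6, 38.9, 27.9 and 30.3 CPM at 2.5%, against lowest 27.04, median 34.8 and highest 42.04 CPM at 0%. All 5 lay within the control range, and the log2 change was -0.07 ± 0.13 (SE, 95% interval -0.35 to 0.20, adjusted p = 0.901). At 0.5% it was at 25.95, 30.15, 21.7, 36.1 and 32.4 CPM, with 2 of 5 libraries below all controls and a change of -0.23 ± 0.13 (SE, 95% interval -0.51 to 0.04, adjusted p = 0.705). That change was -0.41 without the animals numbered above 70, with an unadjusted p = 0.011 that did not pass over all genes, and -0.14 without 0.5% replicate 3. At 1.0% the means went the other way, 37.2 ± 4.24 CPM at 1.0% (SD, n = 5) and 34.4 ± 5.80 at 0% (n = 6), with a change of 0.11 ± 0.13 (SE, 95% interval -0.16 to 0.38, adjusted p = 0.999), or 0.05 without 0% replicate 5. Ptgs1 shares 148 exon bases with Gm43621, a locus on the other strand.

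Hpgds makes prostaglandin D2 in tuft cells, mast cells and macrophages and lies on chromosome 6 from 65117293 to 65144908 (minus strand). It was at 7.82, 7.44, 6.76, 6.53 and 5.67 CPM at 2.5%, against lowest 4.20, median 6.95 and highest 8.97 CPM at 0%, so all 5 libraries lay within the control range. The log2 change was -0.04 ± 0.15 (SE, 95% interval -0.35 to 0.28, adjusted p = 0.959) at 2.5%, and 0.09 ± 0.15 (SE, 95% interval -0.23 to 0.40, adjusted p = 0.999) at 1.0%. The control range was set at its low end by 0% replicate 6, the library of lowest total, at 4.20 CPM. Of 11 mast cell marker genes, other sources of these enzymes, 6 were tested and 0 called at 2.5%, all 6 were negative and the median log2 change was -0.50, or -0.40 with 1 of 6 positive when 0% replicate 5 was left out. The mast cell genes Mcpt2 and Cpa3, with the largest falls of the 6, were at 0.901 and 0.532 CPM at 2.5%. At 0% they were at 1.51 and 0.872 CPM (adjusted p = 0.546 and 0.620 by edgeR). Mcpt1 was at 2.42 CPM at 2.5% and 3.30 at 0%, and Hdc, which changed least, at 1.68 and 1.73 CPM. The summed level of the list was 39.1 to 51.4 CPM at 2.5% and 40.3 to 63.0 CPM at 0%, most of it from Kit, which averaged 41.7 CPM and is used by pacemaker cells of the gut muscle too. Of 10 macrophage genes, 0 were called at 2.5%, 9 were negative and the median was -0.14, or -0.08 with 7 negative when 0% replicate 5 was left out. At 0.5%, 9 of the 10 were also negative, with a median of -0.27. The summed level of the macrophage list was 216.5 to 266 CPM at 2.5% and 216.8 to 285.7 CPM at 0%. Most of it came from Mertk, which averaged 188 CPM, where C1qa averaged 19.4, Csf1r 6.52 and Adgre1 3.51 CPM. The sum therefore mainly follows Mertk, and which cells its reads came from was not tested. Mcpt2, Cpa3 and Mertk were picked out after their values were seen. The part of mast cells and macrophages in the levels of Alox5, Ptgs1 and Hpgds was not tested.

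Enzymes and receptors next to these 3 were read from a list of 15 genes, of which 11 were tested. At 2.5%, 0 of 11 were called, 4 were positive and the median log2 change was -0.13. Lta4h, which makes leukotriene B4, was at 40.4 ± 3.13 CPM at 2.5% (SD, n = 5) and 40.3 ± 3.73 at 0% (n = 6). Pla2g4a, the phospholipase that frees arachidonic acid, was at 28.9 ± 2.09 CPM at 2.5% (SD, n = 5) and 29.8 ± 5.23 at 0% (n = 6). Ptgs2, the inducible cyclooxygenase, was at 11.2 ± 2.06 CPM at 2.5% (SD, n = 5) and 14.2 ± 10.6 at 0% (n = 6), and the mean at 0% held 1 library far from the rest, replicate 5 at 35.0 CPM, where the next highest of all libraries had 13.9. Ptges, a prostaglandin E synthase, was at 6.125 ± 1.33 CPM at 2.5% (SD, n = 5) and 7.91 ± 1.37 at 0% (n = 6), with a log2 difference of -0.37 ± 0.16 (adjusted p = 0.516). Without 0% replicate 5, 5 of 11 were positive at 2.5% and the median was -0.03.

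Il25, the cytokine through which tuft cells call on the type 2 response, lies on chromosome 14 from 54932695 to 54935837 (plus strand) and was barely detected. Its counts were 0, 0, 0, 4 and 0 at 2.5%, against 0, 0, 2, 3, 7 and 1 at 0%, which sums to 4 counts over 5 libraries and 13 counts over 6. The sums were 8 at 0.5% and 7 at 1.0%. The highest count, 7, was in 0% replicate 5, and 9 of 21 libraries had none. A change in Il25 was not detectable at this depth: with no filter on low counts the fitted log2 change at 2.5% was -1.13 ± 1.14 (SE), with an interval of -3.46 to 1.20 and an adjusted p = 0.795.

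Genes linked to the type 2 response were read from a list of 15, of which 12 were tested and 0 called in any contrast. Clca1, a goblet cell protein induced by interleukin 13, was at 407.8 ± 45.9 CPM at 2.5% (SD, n = 5) and 297.9 ± 74.5 at 0% (n = 6), a log2 difference of 0.45 ± 0.16 (adjusted p = 0.424). The receptor chain Il13ra1 was at 116.1 ± 8.20 CPM at 2.5% (SD, n = 5) and 118.8 ± 9.96 at 0% (n = 6) and the growth factor Areg at 97.7 ± 40.98 CPM at 2.5% (SD, n = 5) and 100.5 ± 29.4 at 0% (n = 6). Il4ra, the shared receptor of interleukins 4 and 13, was at 42.6 ± 3.20 CPM at 2.5% (SD, n = 5) and 55.75 ± 21.8 at 0% (n = 6). At 2.5%, 2 of 12 were positive with a median log2 change of -0.31, beside -0.01 over all genes, and at 0.5% 1 of 12 was positive with a median of -0.35. These medians rested on 0% replicate 5, which had the highest value of all libraries for Il4ra (98.9 CPM, next 57.2), Il1rl1 (76.5, next 39.4), Il33 (32.4, next 5.86), Arg1 and Gata3. Without it, 6 of 12 were positive at 2.5% with a median of -0.04, and 3 of 12 at 0.5% with a median of -0.14. Il33, Il1rl1, Arg1 and Gata3 were picked out after their values were seen.

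A wider list of 37 further tuft cell genes gave the same count. Of its 32 tested genes, 0 were called at 2.5%, 14 were positive and the median log2 change was -0.05. The slope was called for 0 of 32, with 12 positive. The 4 most abundant, all used by other cells too, were the surface protein Cd24a at 232 ± 27.5 CPM at 2.5% (SD, n = 5) and 216.1 ± 20.1 at 0% (n = 6), the adaptor Fyb at 84.7 ± 11.9 CPM at 2.5% (SD, n = 5) and 82.2 ± 9.03 at 0% (n = 6), the phosphatase Ptpn18 at 61.7 ± 5.04 CPM at 2.5% (SD, n = 5) and 62.65 ± 4.27 at 0% (n = 6) and Kctd12 at 55.98 ± 6.62 CPM at 2.5% (SD, n = 5) and 64.3 ± 13.85 at 0% (n = 6). The lowest adjusted p of the list at 2.5% was that of Inpp5d, a lipid phosphatase that blood cells use as well, at -0.31 ± 0.09 (adjusted p = 0.282), and it was named after its value was seen. Hmx2, Hmx3 and Cd300lf had no count in any library. None of the 16 gene lists examined, those of other cell types included, held a gene called by edgeR in any contrast. Of all 15652 genes tested, 0% to 0.147% were called in each contrast. With shares that low, the lack of calls says little about lists of this size.

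**Figure D3:**
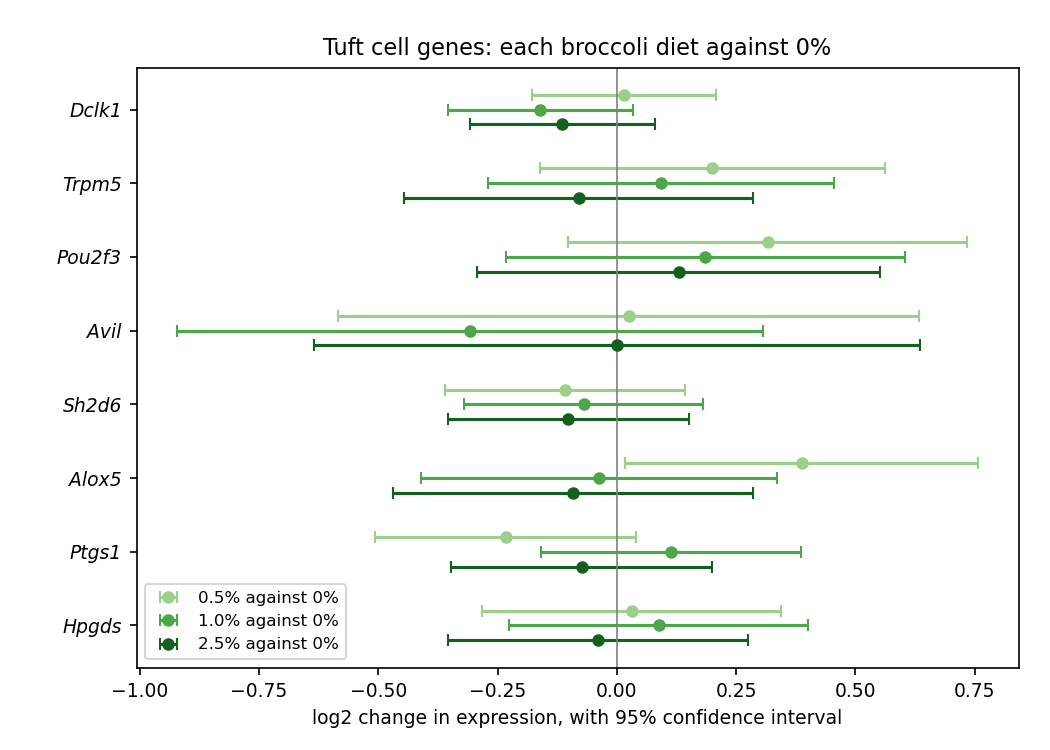
Log2 change in expression of the 8 tested genes in each broccoli diet against 0% (horizontal axis), with 95% confidence intervals from the edgeR fit. All intervals include 0 except that of Alox5 at 0.5% (0.02 to 0.76), which did not pass adjustment over all genes.

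Few of the 8 genes were strongly correlated with each other across mice. Over the 21 libraries, the 28 pairs had Pearson correlations of log2 CPM between -0.37 and 0.59 with a median of 0.11, and 17 were positive. After Benjamini-Hochberg adjustment over the 28 pairs, 0 passed by Pearson and 0 by Spearman. The highest was between Dclk1 and Alox5, with Pearson's r = 0.59 (permutation p = 0.00489, adjusted p = 0.101) and Spearman's rho = 0.56 (permutation p = 0.0085, adjusted p = 0.119). It was 0.57 without the 2 libraries farthest from the median in Dclk1, 0.58 on deviations from the diet means, and 0.71 in the 15 libraries low in small intestine markers. Next came Pou2f3 and Alox5, with Pearson's r = 0.57 (permutation p = 0.00724, adjusted p = 0.101) and Spearman's rho = 0.60 (permutation p = 0.00487, adjusted p = 0.119), and an r of 0.54 on deviations from the diet means. Pou2f3 and Hpgds had r = 0.53 (permutation p = 0.0163, adjusted p = 0.153) and rho = 0.44 (permutation p = 0.0488, adjusted p = 0.369). Their r was 0.28 without the 2 libraries farthest from the median in Pou2f3, so its size depended on those libraries. It was 0.53 on deviations from the diet means and 0.54 in the 15 libraries low in small intestine markers. Trpm5, Sh2d6 and Dclk1, all tuft cell markers, had r of 0.04 to 0.14 with each other. Among Dclk1, Pou2f3 and Avil the r was higher, at 0.36 to 0.41, and Pou2f3 and Avil had r of -0.25 to -0.02 with Trpm5 and Sh2d6. These sets of markers were picked out after their values were seen. Ptgs1 was between -0.37 and 0.07 with all other members. Low counts limit the precision of these correlations, since Avil, Alox5, Trpm5 and Pou2f3 had 15 to 204 counts a library.

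Beside other cell types, Hpgds was the member most correlated with a marker list. With the mean log2 CPM of B cell markers it had r = 0.69 (permutation p = 0.00036, adjusted p = 0.0317 over 88 pairs of a member and a list) and rho = 0.63 (permutation p = 0.0026, adjusted p = 0.228), so it passed by Pearson only. The r was 0.57 without the 2 farthest libraries, 0.72 on deviations from the diet means and 0.67 in the 15 libraries low in small intestine markers. No pair passed by both measures. With macrophage markers Hpgds had r = 0.49 (permutation p = 0.0231, adjusted p = 0.324) and rho = 0.51, and r = 0.67 on deviations from the diet means. With mast cell markers Hpgds had r = 0.45 (permutation p = 0.0413, adjusted p = 0.397) and rho = 0.42, and r = 0.51 on those deviations. With macrophage and mast cell markers, Alox5 had r of 0.09 and -0.01, and Ptgs1 of -0.19 and 0.27. Dclk1 and the list of general epithelial markers had r = -0.59 (permutation p = 0.00546, adjusted p = 0.240) and rho = -0.58 (permutation p = 0.00689, adjusted p = 0.228), and r = -0.51 without the 2 farthest libraries. Ptgs1 and large bowel epithelium had r = -0.56 (permutation p = 0.00895, adjusted p = 0.263) and rho = -0.57 (permutation p = 0.00798, adjusted p = 0.228), and Ptgs1 and enteric neurons and glia had r = 0.52 (permutation p = 0.0137, adjusted p = 0.302) and rho = 0.48. None of these passed the adjustment. The part of other cell types in the members' levels was not tested.

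The genes most like each member across the 21 libraries were ranked by Pearson r among all tested genes and are given with no test. Those of Dclk1 were the collagen genes Col1a2 and Col3a1 and the transcription factor Tead1, each at r = 0.84. Those of Ptgs1 were Cdip1 (0.89), Rgs12 (0.86) and the calcium sensor Stim1 (0.85), and those of Hpgds were Otulinl (0.86), the innate RNA receptor Tlr13 (0.82) and Sall1 (0.82). Alox5 was nearest to Kazn, Sbk1 and Cyp2d34, each at 0.80, and Pou2f3 to Rc3h1 (0.81), Stx16 (0.78) and Arap2 (0.75). Trpm5 was nearest to Psrc1 (0.73), Capn13 (0.69) and Dcaf4 (0.68), Sh2d6 to Rtn4rl1 (0.72), Cyp2d22 (0.70) and Stab2 (0.69), and Avil to Map1s (0.72), Nradd (0.70) and Pgam2 (0.68). Among the 50 most like genes of each member, none of the 8 lists held another member.

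**Figure D4:**
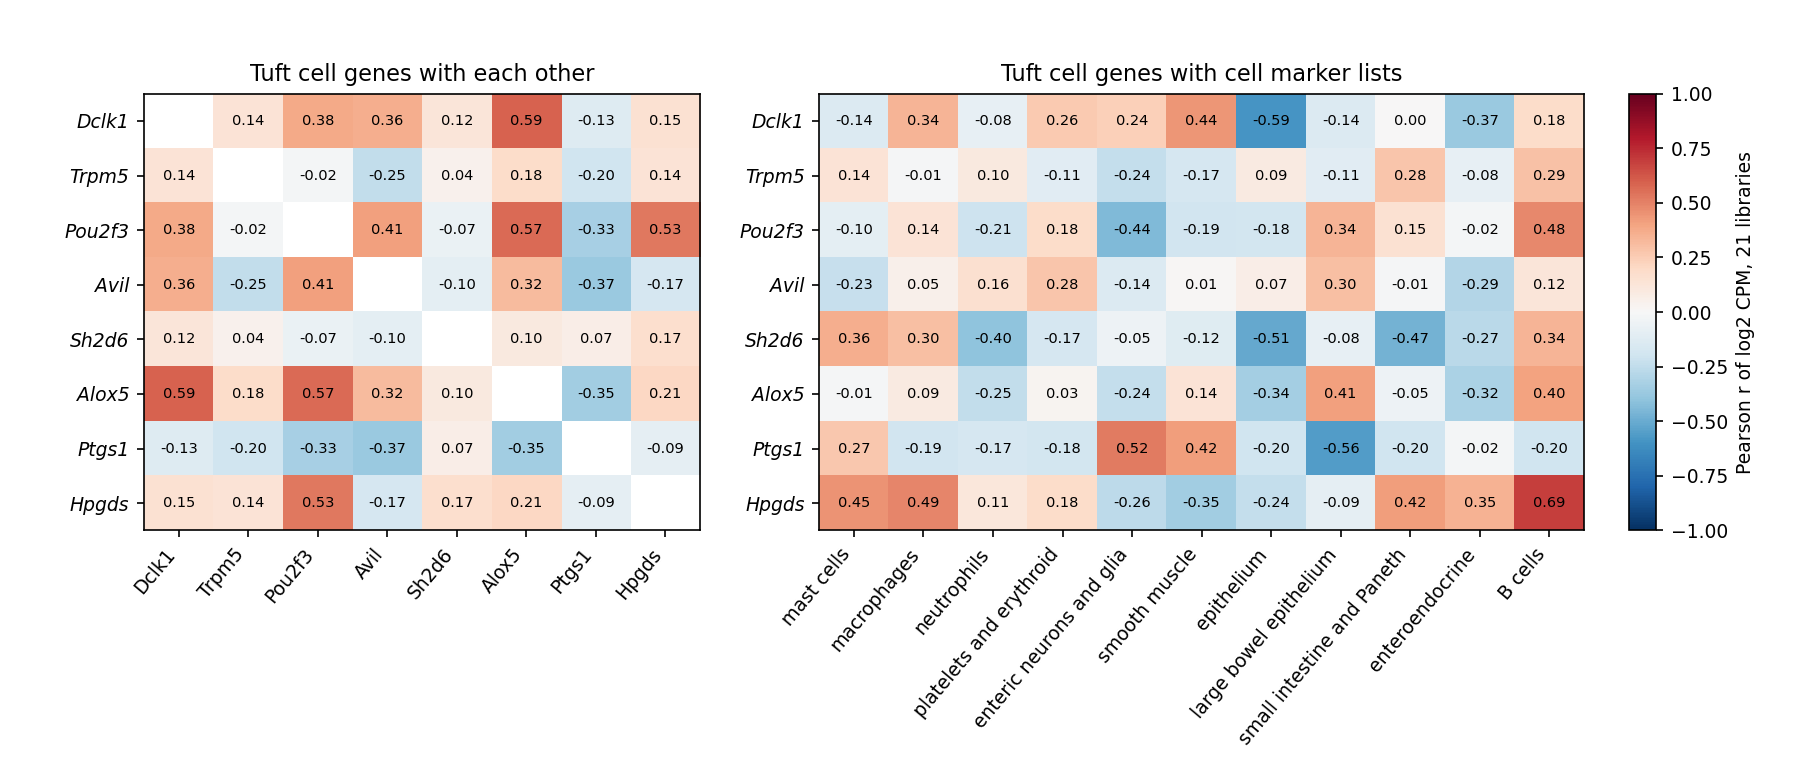
Pearson r of log2 CPM over the 21 libraries (colour and printed value), between the 8 tested genes (left) and between each gene and the mean of 11 cell marker lists (right). Values between members run from -0.37 to 0.59, and the strongest in the right panel is Hpgds with B cell markers, at 0.69.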

How the data were processed

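Raw counts per gene were deposited by the authors as 1 table for all 21 libraries, made from stranded mRNA libraries per the labels' protocols. The submitters' processing notes name the build mm10. The sources used here do not name the aligner, counter, annotation or strand setting. Symbols, coordinates and exon lengths came from GENCODE M21 (GRCm38), which held 25268 of 25361 identifiers.

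Members, gene lists and the rule for named genes were chosen with earlier results of these data known. All 10 members were named whatever their p, though not each with its change in every comparison. Of each list the 4 most abundant genes and any called gene were to be named, and of each member the 3 genes with the highest r. The test on counts was that of edgeR 4.0.16, run under R 4.3.3 (TMM, filterByExpr by diet, robust quasi-likelihood, 1 fit of all 21 libraries), with Benjamini-Hochberg adjustment over 15652 genes and two-sided tests. Log2 CPM used a prior count of 2. Correlations used 100000 permutations of the libraries, two-sided, whose smallest possible p is 1e-05. The procedure was tested on simulated data. DESeq2 1.42.0, limma 3.58.1 voom, other scalings, a covariate and left-out libraries were tried. A result on 1 further gene is not reported here.

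Replicate numbers follow accession order and pair nothing. No cage is named, so mice were taken as independent. Animal numbers ran in blocks by diet, except for 3 mice (animals 76 and 77 at 0.5% and 80 at 1.0%), and an effect that follows the blocks cannot be told apart from diet. Libraries of 1 diet differed beyond sampling noise (lowest chi-square per degree of freedom 17.1).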

Additional observations from a re-analysis of the deposited data

Results flagged for a closer look

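Il25 in 2.5% replicate 4 stood at 0.117 CPM (4 counts), while the other 4 libraries at 2.5% had no count, so its gap to the next library was the whole range of the group. A count of 0 allows up to 3 counts in a library. It was the only flag among 40 combinations of a member and a diet, and chance flags about 1 in 20 groups of continuous values. For counts that tie at 0 that rate does not apply, since any single library with reads is then set apart.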

How the results depend on the processing

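No paired analysis was possible because the labels give no replicate numbers shared between diets. Under 30 alternative settings, 21 of which leave out 1 library, the number of members called was 0 in each of the 6 contrasts, while the number of all genes called at 2.5% ranged from 0 to 56 when 1 library was left out and was 121 when the 6 libraries with high small intestine markers were left out. Of 1184 alternative values for 40 pairs of a member and a contrast, 0 were called, and the lowest adjusted p was 0.410, for Alox5 at 0.5% without 0% replicate 1 (log2 change 0.50). The sign was kept in all settings by 23 of the 40, among them Pou2f3, Alox5, Ptgs1, Sh2d6 and Trpm5 at 0.5%. For the other 17, whose main values were all between -0.10 and 0.10, the sign turned in 75 values, and the cause was not tested. The values of the turned sign are log2 changes. With RLE scaling, Avil at 2.5% was -0.0016. With library totals as scaling, Dclk1 at 0.5% was -0.0699, Avil at 0.5% was -0.066, Hpgds at 0.5% was -0.051, Avil at 2.5% was -0.061 and Hpgds for the mean of the broccoli diets was -0.0094. With no filter on low counts, Avil at 2.5% was -0.0024. With DESeq2, Avil at 2.5% was -0.0021. With limma voom, Alox5 at 1.0% was 0.0015, Avil at 2.5% was -0.078 and Ptgs1 for the slope was 0.0031. Without the animals numbered above 70, Dclk1 at 0.5% was -0.047, Hpgds at 0.5% was -0.012 and Avil at 2.5% was -0.00197. With those 6 libraries left out, Trpm5 at 2.5% was 0.019, Avil for the mean of the broccoli diets was 0.12 and Avil for the slope was 0.041. With the epithelium covariate, Dclk1 at 0.5% was -0.012, Avil at 2.5% was -0.013 and Ptgs1 for the slope was 0.0051. Fitting just the 2 groups compared, Avil at 2.5% was -0.0024. Leaving out 1 library at a time gave these ranges. Alox5 ran from -0.10 to 0.082 for 1.0% and -0.16 to 0.024 for 2.5%. Avil ran from -0.10 to 0.15 for 0.5%, -0.27 to 0.20 for 2.5%, -0.22 to 0.035 for the mean of the broccoli diets and -0.13 to 0.069 for the slope. Dclk1 ran from -0.028 to 0.04996 for 0.5%. Hpgds ran from -0.079 to 0.11 for 0.5%, -0.022 to 0.17 for 1.0%, -0.15 to 0.043 for 2.5%, -0.083 to 0.11 for the mean of the broccoli diets and -0.053 to 0.0091 for the slope. Pou2f3 ran from -0.024 to 0.079 for the slope. Ptgs1 ran from -0.12 to 0.00067 for the mean of the broccoli diets and -0.028 to 0.021 for the slope. Trpm5 ran from -0.16 to 0.0095 for 2.5% and -0.013 to 0.16 for the mean of the broccoli diets. The list values without 0% replicate 5 were chosen after seeing the data. Depth limits Il25 and Gfi1b, at 0 to 7 and 0 to 13 counts a library.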

Other observations

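Of the 15 genes of the type 2 list, 12 had reads in all 21 libraries, among them Il1rl1 at a mean of 23.4 CPM, Il4 at 4.05 CPM and Gata3 at 1.315 CPM. The other 3 were sparse. Il17rb, a receptor gene for interleukin 25, had 52 counts in all, with 3 libraries at 0, and the cytokine genes Il13 and Il5 had 17 and 88 counts, with 12 and 4 libraries at 0. Of the 11 mast cell genes, 6 had reads in all 21 libraries, among them the proteases Mcpt1 at a mean of 3.03 CPM and Mcpt2 at 1.30 CPM. The other 5 were sparse, with 2 counts in all for Tpsab1, 12 for Cma1, 36 for Fcer1a, 42 for Mcpt4 and 68 for Tpsb2. These genes were picked out after their values were seen.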
